A study of Homo sapiens with 6 samples.

Results

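The genes described here are the enzymes and regulators with which a cell makes its own cholesterol and fatty acids. The set has 30 genes, chosen by name: 7 enzymes of the mevalonate arm, 11 enzymes from squalene to cholesterol, 5 sterol regulators and carriers, and 7 enzymes of fatty acid synthesis, elongation and desaturation. The choice was made with earlier results of these data known. Of the 48162 genes in the deposited count table, 29 were members with a row, and 28 of these passed a filter on low counts that left 15860 genes for testing. ACACA, which makes malonyl-CoA, was not analysed here because its identifier in GENCODE release 29 has no row, and STARD4, a soluble sterol carrier, had between 0 and 2 counts in every sample and was not tested.

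Cholesterol is built from acetyl-CoA through mevalonate, isoprenoid units and squalene, and fatty acids are built from the same acetyl-CoA by carboxylation and chain elongation. Both pathways are switched on by the SREBP transcription factors, which SCAP escorts from the endoplasmic reticulum to the Golgi when membrane sterol is low and which INSIG proteins hold back when sterol is high. SREBF2 is known mainly as the driver of sterol genes and SREBF1 mainly as the driver of lipogenic genes, and fast-growing tumour cells often keep both pathways active.

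SiHa is an established human cervical cancer cell line that carries human papillomavirus. Cells in serum-containing medium received either si-CNN3#1, which is a short interfering RNA (siRNA) directed at the actin-binding protein calponin 3 (CNN3), or the control siRNA si-NC, with 3 samples in each group. The labels place a change of medium 24 h after transfection and the harvest of RNA at 48 h, and the study describes the samples as 3 independent assays per group. The comparison asks how the transcripts of these genes differed after CNN3 was lowered by 1 siRNA in 1 cell line, with a transient rather than a stable knockdown. All 6 samples shared the line, the medium and the transfection itself, and no untransfected sample was analysed here.

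Levels are given as CPM, a gene's count scaled to the size of its sample with edgeR's TMM normalization, and differences as log2 fold changes of si-CNN3#1 over si-NC with the standard error (SE). A gene was called where edgeR's quasi-likelihood test gave a Benjamini-Hochberg adjusted p of at most 0.05 over all tested genes. CNN3 itself measured 56.5, 51.7 and 57.2 CPM with si-NC and 25.99, 26.8 and 31.4 CPM with si-CNN3#1. The groups did not overlap, the log2 fold change was -0.97 (SE 0.055, adjusted p = 2.04e-20 by edgeR's quasi-likelihood test), and CNN3 therefore stood at 50.9% of its control level. An exact two-sided permutation test on CNN3 gave p = 0.1, the smallest value that 3 samples against 3 allow. Total counts ran from 18147028 to 19026341 with si-CNN3#1 and from 20287139 to 24976517 with si-NC, so every control sample was deeper. Counts thinned to the smallest total gave the same 5 called members as the full counts.

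The epithelial keratins KRT7, KRT8 and KRT18 were abundant in the control samples at 799.8, 531 and 115 FPKM, a deposited unit that scales to gene length and sample size, whereas KRT5 was near 0 (0.410 FPKM). KRT8 and KRT18 were called lower with si-CNN3#1 (log2 fold changes -0.19 and -0.18), 2 of the 6 epithelial markers tested, and the summed level of the 7 listed markers ran from 1275 to 1329 CPM with si-NC and from 1211 to 1246 CPM with si-CNN3#1. Of the 3 immune markers given here, CD14 was expressed and called lower (log2 fold change -0.30), while PTPRC and CD3E averaged at most 1.08 FPKM in the controls, and the sum of these 3 was 144 to 156 CPM with si-NC and 120.0 to 128 CPM with si-CNN3#1. None of the 4 fibroblast markers tested was called, and the sum of the 5 listed was 10.6 to 12.2 CPM with si-NC and 11.04 to 12.5 CPM with si-CNN3#1. The endothelial markers VWF and CDH5 averaged at most 0.0947 FPKM in the controls, and PECAM1 was not analysed here because its identifier has no row. Of 5 adipocyte and hepatocyte markers, PLIN1 averaged 1.18 FPKM and was not called, and the other 4 averaged at most 0.142 FPKM in the controls. The part of these shifts in the lipid genes was not tested, and in RNA from whole cultures fewer cells of a kind and less RNA per cell cannot be told apart.

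The siRNAs are shown because a guide strand can also bind other transcripts through its seed, bases 2 to 8, which is in capitals in the guide lines.
si-CNN3#1 sense: GCAGAUGGGAACCAACAAA
si-CNN3#1 guide: uUUGUUGGuucccaucugc
si-NC sense: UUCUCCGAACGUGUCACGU
si-NC guide: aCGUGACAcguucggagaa
The sense strand of si-CNN3#1 matched the coding sequence of CNN3 across an exon junction, at chr1:94899503-94901672 on the minus strand (GRCh38). The seed of its guide pairs with the 7-base site CCAACAA, which was present in the annotated 3′ UTRs of 9.98% of the 12639 tested genes that have one. Among the lipid synthesis genes only SCD and FADS2 held this site, once each, and none held the site of the si-NC seed, which was present in 3.38% of genes. Both sites are printed with 9 bases on each side and the seed match in capitals.
SCD, chr10:100361080-100361104, plus strand: tattgaaagCCAACAActctgcctt
FADS2, chr11:61867108-61867132, plus strand: gggcaggcaCCAACAActcagaatg
SCD and FADS2 were also called lower. A site in the sequence does not show that the guide bound there, and its part in the lower levels was not tested.

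Upstream sequences are shown for the called genes SCD, INSIG1 and ELOVL6, and for the sterol enzymes HMGCS1 and MSMO1, which were not called, so that their promoters can be compared. Each is the longest stretch of the 250 bases before a RefSeq transcription start (GRCh38.p14) that no annotated exon covers, read 5′ to 3′ on the gene's strand. Capitals mark CCAAT, the box bound by NF-Y, a known partner of SREBP, on either strand.
SCD, chr10:100346983-100347123, plus strand: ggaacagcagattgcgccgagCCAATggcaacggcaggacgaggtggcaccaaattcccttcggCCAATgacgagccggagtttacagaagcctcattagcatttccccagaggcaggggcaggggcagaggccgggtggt
INSIG1, chr7:155297628-155297775, plus strand: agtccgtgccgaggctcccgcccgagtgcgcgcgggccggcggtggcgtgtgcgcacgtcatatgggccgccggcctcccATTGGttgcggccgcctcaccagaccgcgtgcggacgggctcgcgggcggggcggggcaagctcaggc
ELOVL6, chr4:110198677-110198841, minus strand: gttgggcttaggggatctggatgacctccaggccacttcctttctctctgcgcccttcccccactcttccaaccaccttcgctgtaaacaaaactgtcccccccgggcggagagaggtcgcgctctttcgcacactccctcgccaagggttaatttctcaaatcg
HMGCS1, chr5:43313513-43313662, minus strand: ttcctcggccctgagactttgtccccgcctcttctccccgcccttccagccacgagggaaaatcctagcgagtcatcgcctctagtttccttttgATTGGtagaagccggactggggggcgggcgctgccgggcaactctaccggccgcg
MSMO1, chr4:165327419-165327622, plus strand: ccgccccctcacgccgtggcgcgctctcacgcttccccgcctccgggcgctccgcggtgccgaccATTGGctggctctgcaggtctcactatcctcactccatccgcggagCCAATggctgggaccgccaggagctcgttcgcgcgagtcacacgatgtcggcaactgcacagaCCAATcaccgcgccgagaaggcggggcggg
Windows were analysed here for 26 of the members and not for FASN, FDFT1, SQLE and ACAT2. The FADS2 window lies 11357 bases from the principal start of FADS2 in GENCODE, that of EBP 650 and that of PMVK 272. Annotated exons cover all 250 bases in the windows of EBP, PMVK, MVK, IDI1, TM7SF2 and SREBF2. They cover 215 in SC5D, 194 in FADS1 and 177 in CYP51A1, and a part of all other windows but that of HSD17B7. Matches in these windows can therefore lie in exons rather than upstream of the gene. Motifs were searched on both strands of all 250 bases. CCAAT was in 19 of the 26 windows and in 32% of all 35116 windows, and GGGCGG, the core of Sp1 sites, was in 25 of the 26 and in 42.6% of all. CACGTG, an E-box to which SREBP and other factors bind, was in the windows of INSIG1, SCAP and SC5D, and in 6.34% of all. TCACNCCAC, 1 spelling of the sterol regulatory element, was in the window of SREBF2 alone, 133 bases before its start, and in 0.883% of all windows. ELOVL6, the member called higher, had none of these letters but GGGCGG, as did FADS2, called lower, and the uncalled FADS1, PMVK, CYP51A1 and SREBF1. SCD held CCAAT at 2 positions, INSIG1 at 1, HMGCS1 at 2, and MSMO1 at 4. CCAAT and GGGCGG thus occurred in the windows of called and uncalled genes alike, and no match says only that these letters were not in this window.

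SiHa cells expressed nearly the whole of both pathways. In the control samples the level per length ran over the members from 271 FPKM for the fatty acid synthase FASN (271 ± 7.75, SD, n = 3) down to 3.62 FPKM for the lanosterol demethylase CYP51A1 (3.62 ± 0.470), with STARD4 at 0.0413 FPKM. After FASN came MVD at 205 ± 4.73, FADS1 at 170 ± 4.11, ACLY at 154 ± 2.09, SREBF1 at 153 ± 1.11, SREBF2 at 146 ± 3.94 and SCD at 145 ± 3.92 FPKM. ACLY and SREBF1 overlapped in their single-sample values, as did SREBF2 and SCD, so the order of these neighbours was not larger than the spread between samples. The sterol enzymes FDFT1, EBP and DHCR7 lay between 110.1 and 128 FPKM, and SQLE and HMGCS1 were near each other at 82.9 ± 2.85 and 81.95 ± 0.656 FPKM. The lowest tested members besides CYP51A1 were TM7SF2 at 6.91 ± 0.284, ACAT2 at 14.1 ± 0.594 and NSDHL at 15.4 ± 1.01 FPKM. For CYP51A1 the level is uncertain, since 79.35% of its exonic bases lie under other annotated genes on the same strand and reads shared between genes may not have been counted.

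**Figure D1:**
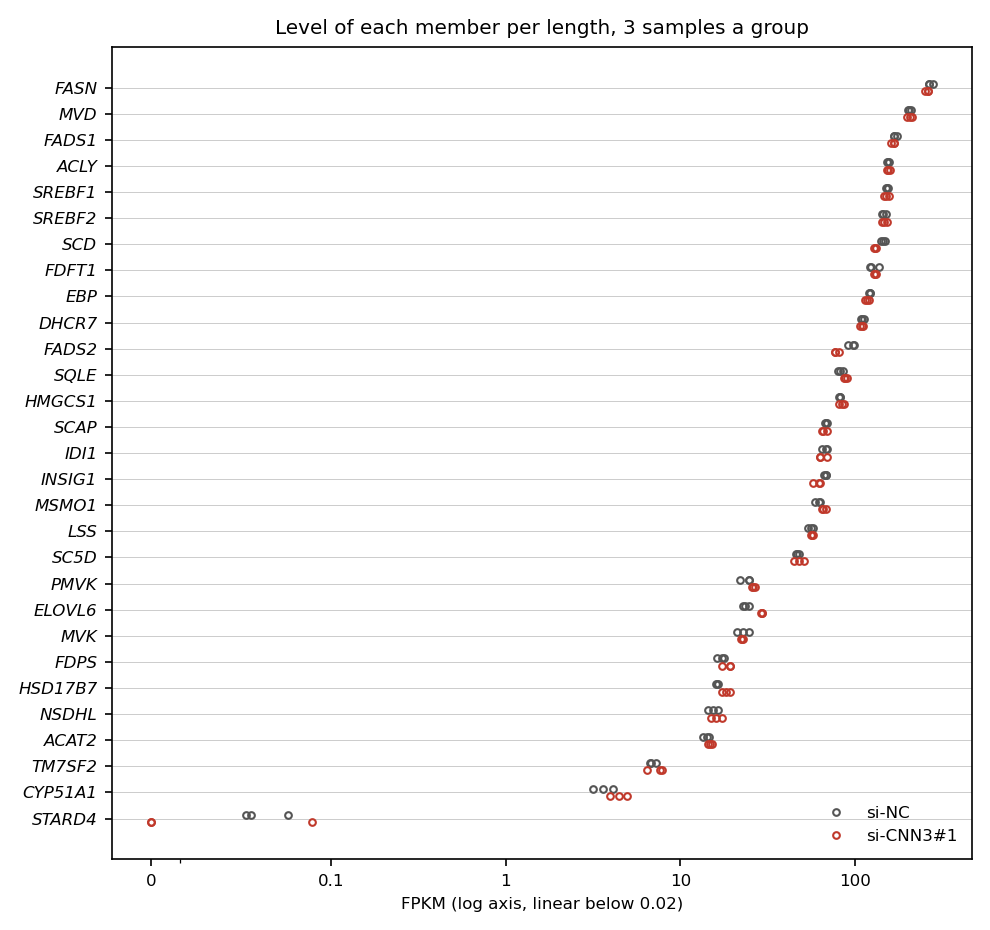
FPKM of the 29 members with a row (horizontal axis, log scale, linear below 0.02) in the 3 si-NC samples (grey) and the 3 si-CNN3#1 samples (red), ordered by the si-NC mean. FASN is at the top with 271 FPKM and STARD4 at the bottom with 0.0413 FPKM in the controls, and the samples of both groups lie close together for most genes.

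After CNN3 knockdown 5 of the 28 tested members were called, 1 higher and 4 lower. Among all 15860 tested genes 13.3% were called, 6.17% higher and 7.14% lower. The 5 called members made up 17.9% of the 28. The desaturases FADS2 and SCD, the synthase FASN and the SREBP regulator INSIG1 were lower, the elongase ELOVL6 was higher, and none of the 18 enzymes from acetoacetyl-CoA to cholesterol was called. At an unadjusted p under 0.05 (edgeR) there were 5 of these 18, beside 3978 of all 15860 tested genes. With edgeR's replicate block or with total counts in place of TMM 1 of the 18, MSMO1, was called. DESeq2 and limma on FPKM values called 0 of the 18. Tested against a change of at least 1.2-fold with edgeR's glmTreat, 0 members and 126 of all genes were called. The median log2 fold change was -0.0011 over the 28 members and 0.0023 over all tested genes. The groups did not overlap in 10 members (35.7%), compared with 28.2% of all tested genes. Scaled by total counts alone, 60.0% rather than 46.3% of all called genes were higher, and the 5 called members kept their directions.

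The calls lay mostly in the fatty acid arm, where 4 of the 6 tested enzymes (66.7%) were called, beside 13.3% of all tested genes. The median log2 fold change of this arm was -0.076. Its median SE was 0.028, against 0.040 in the mevalonate and sterol arms and 0.066 over all tested genes, so smaller changes could be called here. The largest fall was in FADS2 (chr11:61792980-61867354, plus strand), the desaturase that opens the conversion of linoleic and alpha-linolenic acid to longer polyunsaturated fatty acids. FADS2 measured 139.6, 147 and 151 CPM with si-NC and 116, 121 and 116 CPM with si-CNN3#1. Every knockdown sample was below every control sample, at 80.7% of the control mean, with a log2 fold change of -0.31 (SE 0.033, adjusted p = 1.15e-10 by edgeR's quasi-likelihood test). Its neighbour FADS1 (chr11:61799625-61829318, minus strand), which acts later in the same conversion, measured 193, 199 and 191 CPM with si-NC and 189.6, 187 and 181 CPM with si-CNN3#1. The FADS1 groups did not overlap either, but the log2 fold change of -0.065 (95% confidence interval -0.12 to -0.0060) did not pass the test (adjusted p = 0.147, edgeR). The 2 genes overlap on opposite strands in 4.79% of the exonic bases of FADS1, and whether the counting used strand is not given in the sources used here. The ratio of FADS2 to FADS1 within a sample, which needs no scaling between samples, was 0.725, 0.740 and 0.789 with si-NC and 0.612, 0.647 and 0.643 with si-CNN3#1, lower in every knockdown sample than in any control.

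SCD (chr10:100347124-100364834, plus strand) encodes the desaturase that makes oleic and palmitoleic acid from saturated fatty acids. SCD measured 768, 778 and 807 CPM with si-NC and 693, 703 and 696 CPM with si-CNN3#1. All 3 knockdown samples were below the controls, at 88.9% of their mean, and the log2 fold change was -0.17 (SE 0.025, adjusted p = 5.53e-07, edgeR). FASN (chr17:82078333-82098332, minus strand), which assembles palmitate, measured 566, 560.2 and 592 CPM with si-NC and 548, 545 and 524 CPM with si-CNN3#1. The FASN groups also did not overlap, but the fall was small, with a log2 fold change of -0.088 (SE 0.026, adjusted p = 0.0158, edgeR). It was no longer called without si-CNN3#1 replicate 3 (adjusted p = 0.0994, edgeR) or without si-NC replicate 3 (adjusted p = 0.174, edgeR), nor with limma on FPKM values (adjusted p = 0.136).

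ELOVL6 (chr4:110045846-110199199, minus strand), which elongates palmitate and palmitoleate, was the member that rose. It measured 36.3, 38.5 and 36.7 CPM with si-NC and 45.8, 45.04 and 45.6 CPM with si-CNN3#1. Every knockdown sample was above every control, at 122% of the control mean, with a log2 fold change of 0.29 (SE 0.049, adjusted p = 1.16e-05, edgeR). ACLY, which supplies cytosolic acetyl-CoA to both pathways, measured 346, 353 and 352 CPM with si-NC and 357, 342 and 346 CPM with si-CNN3#1, and its groups overlapped. The 95% confidence interval of the ACLY log2 fold change was -0.061 to 0.044. The ratio of ELOVL6 to SCD within a sample was 0.0473, 0.0495 and 0.0455 with si-NC and 0.0661, 0.0641 and 0.0654 with si-CNN3#1, and that of ELOVL6 to FASN was 0.0641, 0.0688 and 0.0620 with si-NC and 0.0835, 0.0827 and 0.0869 with si-CNN3#1. The genes of these ratios were picked with their changes known, so the ratios describe the samples and were not tested. The summed level of the 6 fatty acid genes was 2049, 2076 and 2130 CPM with si-NC and 1949, 1944 and 1909 CPM with si-CNN3#1.

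**Figure D2:**
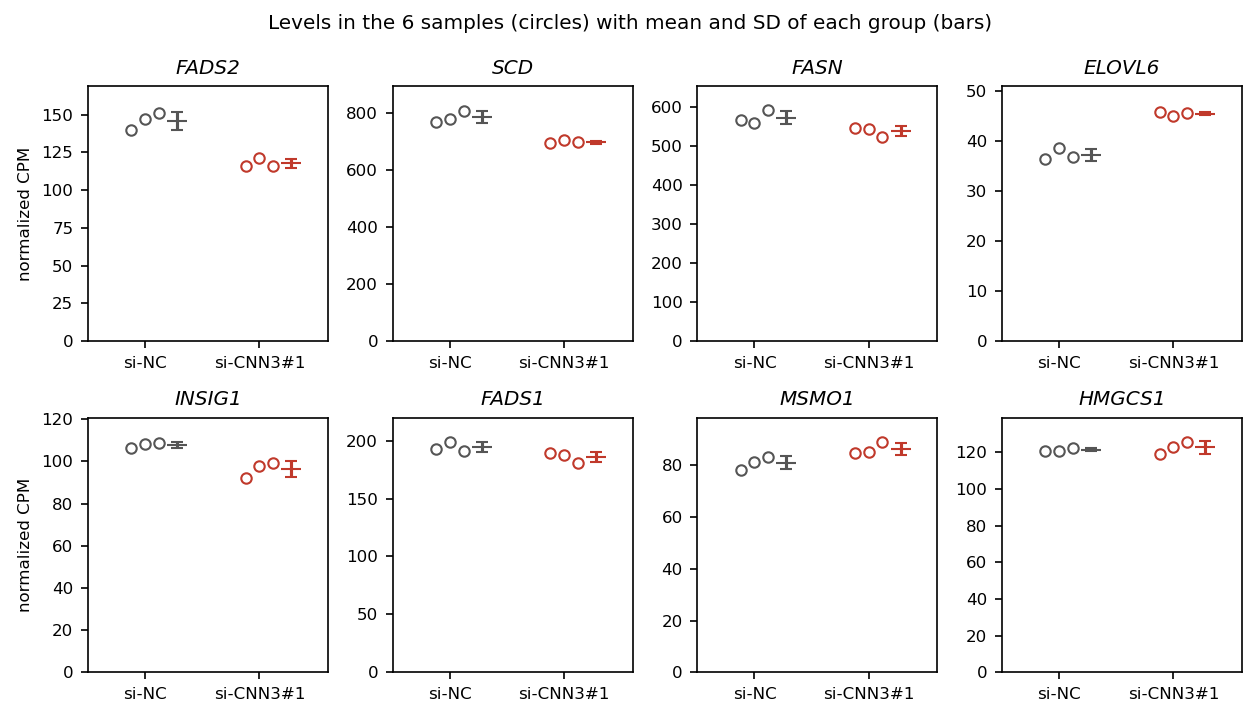
Normalized CPM (vertical axes, starting at 0) of 8 members in each sample, with circles for samples and bars for the mean and SD of each group of 3. The groups do not overlap in FADS2, SCD, FASN, ELOVL6, INSIG1, FADS1 and MSMO1, and they overlap in HMGCS1.

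Among the regulators only INSIG1 (chr7:155297776-155310235, plus strand) was called, 1 of the 4 tested. INSIG1 retains SCAP and its SREBP cargo in the endoplasmic reticulum and is itself a classical SREBP target. It measured 106, 108 and 109 CPM with si-NC and 92.02, 97.7 and 99.1 CPM with si-CNN3#1. The groups did not overlap, the knockdown samples averaged 89.4% of the controls, and the log2 fold change was -0.16 (SE 0.035, adjusted p = 4.78e-04, edgeR). SREBF1 measured 231, 227 and 231 CPM with si-NC and 226, 232 and 218 CPM with si-CNN3#1, and SREBF2 measured 326, 329.9 and 343 CPM with si-NC and 333, 339.6 and 319.5 CPM with si-CNN3#1. For both transcription factors the groups overlapped, with 95% confidence intervals of -0.084 to 0.030 for SREBF1 and -0.064 to 0.046 for SREBF2 on the log2 scale. SCAP measured 104, 102 and 101 CPM with si-NC and 97.6, 101 and 95.8 CPM with si-CNN3#1, with a log2 fold change of -0.055 (95% confidence interval -0.12 to 0.014, adjusted p = 0.339, edgeR). These are transcript levels, and the cleavage and nuclear entry of SREBP proteins were not measured.

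The mevalonate arm turns acetyl-CoA into farnesyl diphosphate, and 0 of its 7 enzymes were called. HMGCS1, which joins acetyl-CoA to acetoacetyl-CoA, measured 121, 121 and 122 CPM with si-NC and 119, 123 and 126 CPM with si-CNN3#1. The 2 groups overlapped, and the log2 fold change of 0.016 had a 95% confidence interval of -0.049 to 0.080. MVD, the decarboxylase that follows the kinase steps, measured 168, 169 and 175 CPM with si-NC and 166, 174 and 169.6 CPM with si-CNN3#1 and had an interval of -0.068 to 0.052. IDI1, the isomerase of the isoprenoid building block, measured 76.95, 81.2 and 80.8 CPM with si-NC and 74.4, 73.3 and 80.95 CPM with si-CNN3#1, with a log2 fold change of -0.066 (interval -0.14 to 0.013). The kinases are the steps between mevalonate and MVD. MVK ranged over 28.2 to 32.6 CPM with si-NC and 29.3 to 29.6 CPM with si-CNN3#1, and PMVK over 28.3 to 32.1 CPM with si-NC and 32.5 to 33.9 CPM with si-CNN3#1, where the groups did not overlap although the log2 fold change of 0.11 was not called (interval 0.0010 to 0.22, adjusted p = 0.194, edgeR). ACAT2, the cytosolic thiolase, ranged over 24.99 to 27.3 CPM with si-NC and 26.6 to 27.96 CPM with si-CNN3#1, and the farnesyl diphosphate synthase FDPS over 15.1 to 16.7 CPM with si-NC and 16.1 to 17.8 CPM with si-CNN3#1. Both of these values are uncertain: 52.3% of the exonic bases of ACAT2 lie opposite other genes, and FDPS has 8 named pseudogenes that may share its reads. FDPS, HMGCS1 and IDI1 lie opposite other annotated genes over 18.64%, 14.95% and 14.8% of their exonic bases. Summed over the arm the level was 468, 473 and 483 CPM with si-NC and 464, 479 and 483 CPM with si-CNN3#1, and these sums overlapped.

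From squalene to cholesterol 0 of 11 enzymes were called, and 9 of the 11 had a log2 fold change above 0, with a median of 0.051. FDFT1, the squalene synthase, ranged over 149 to 169.7 CPM with si-NC and 158 to 159.8 CPM with si-CNN3#1, with a log2 fold change interval of -0.052 to 0.082. SQLE, which puts the first oxygen on squalene and is a known rate-controlling step, measured 103, 104 and 109.5 CPM with si-NC and 111, 113 and 109 CPM with si-CNN3#1. Its lowest knockdown sample lay just under its highest control, and the log2 fold change of 0.076 (SE 0.034) was not called (adjusted p = 0.137, edgeR). LSS, which closes the sterol rings, ranged over 118 to 125 CPM with si-NC and 121 to 124 CPM with si-CNN3#1 and had an interval of -0.059 to 0.071.

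The next enzymes strip methyl groups from lanosterol. CYP51A1 ranged over 4.34 to 5.58 CPM with si-NC and 5.31 to 6.74 CPM with si-CNN3#1, and its log2 fold change of 0.27 was the largest of the uncalled members, with a wide interval of 0.016 to 0.52 and overlapping groups. MSMO1, the sterol methyl oxidase, measured 78.2, 81.2 and 83.2 CPM with si-NC and 84.6, 85.1 and 88.8 CPM with si-CNN3#1. Its groups did not overlap, and its log2 fold change of 0.091 (SE 0.037) came closest to the threshold of the uncalled members, at an adjusted p of 0.0995 (edgeR). The partners of MSMO1 in this step gave less precise values. NSDHL ranged over 21.98 to 25.2 CPM with si-NC and 22.9 to 26.04 CPM with si-CNN3#1 (log2 fold change interval -0.076 to 0.18), and HSD17B7 over 14.4 to 14.7 CPM with si-NC and 15.2 to 17.2 CPM with si-CNN3#1, where the groups did not overlap and the log2 fold change was 0.15 (interval 0.0034 to 0.30, adjusted p = 0.187, edgeR). HSD17B7 has 2 named pseudogenes, which may share its reads.

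The remaining enzymes of the arm move, introduce or reduce double bonds of the sterol, and are not given in pathway order. TM7SF2, a sterol reductase, ranged over 6.49 to 7.03 CPM with si-NC and 6.21 to 7.45 CPM with si-CNN3#1 and was too low for a narrow interval (-0.16 to 0.28). EBP, the sterol isomerase, measured 112, 112 and 112 CPM with si-NC and 108, 104 and 110 CPM with si-CNN3#1. All its knockdown samples were below the controls, with a log2 fold change of -0.060 that was not called (interval -0.13 to 0.0072, adjusted p = 0.267, edgeR). SC5D, a sterol desaturase, ranged over 67.7 to 69.5 CPM with si-NC and 65.7 to 73.8 CPM with si-CNN3#1, and DHCR7, which reduces dehydrocholesterol to cholesterol, over 114 to 119.6 CPM with si-NC and 112 to 117 CPM with si-CNN3#1. Both pairs of groups overlapped, with log2 fold change intervals of -0.063 to 0.10 and -0.096 to 0.036. Summed over the 11 enzymes, the level was 799, 803 and 835 CPM with si-NC and 819, 820.5 and 832 CPM with si-CNN3#1. Of the 18 mevalonate and sterol enzymes, 15 had a 95% confidence interval that lay within a 1.2-fold change in either direction, the exceptions being CYP51A1, TM7SF2 and HSD17B7. A p that misses the threshold does not show that these genes did not change. Each 95% interval holds for 1 gene in this fit and its scaling, and is not adjusted over the 18, so the intervals are no strict bounds.

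**Figure D3:**
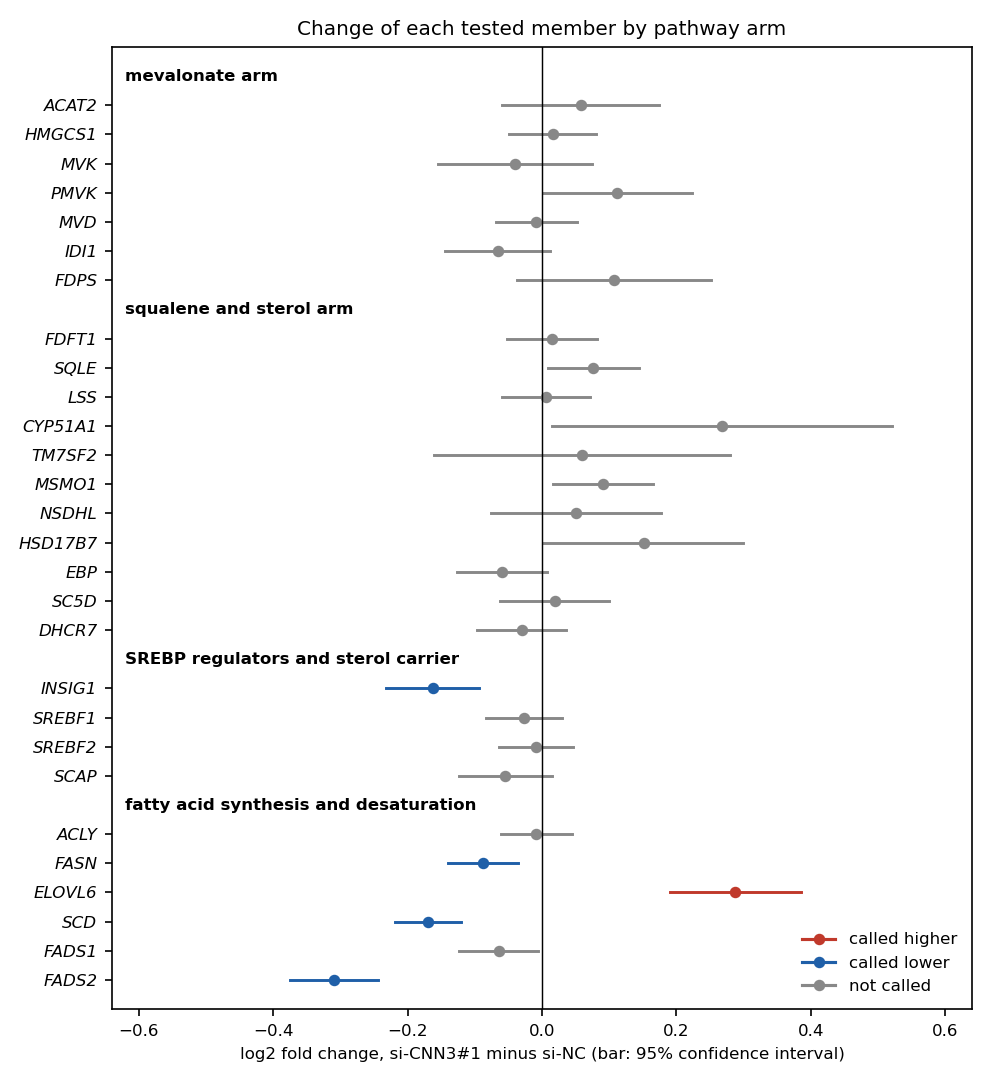
Log2 fold change of si-CNN3#1 over si-NC (horizontal axis) for the 28 tested members by pathway arm, with points for the estimate and bars for the 95% confidence interval. Called genes are red (higher) or blue (lower) and all lie in the regulator and fatty acid groups, and CYP51A1 has the widest bar, from 0.016 to 0.52.

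Genes that act beside the 2 pathways were taken from lists of named genes, and 21 of the 90 tested (23.3%) were called, 6 higher and 15 lower, beside the 13.3% called among all tested genes. These calls depended on the tool: of the 21 genes, DESeq2 called 12, limma on FPKM values called 13 with a filter on low values and 5 without, and leaving out 1 sample kept 14 to 18. The lists were chosen with earlier results of these data known. Their genes had a median SE of 0.044, against 0.066 over all tested genes, so the shares called are not on equal terms. Where DESeq2 or limma with the filter ended the call of a gene named below, that adjusted p is given. Among the other cholesterol synthesis enzymes 3 of 6 tested (50%) were called, all lower. LBR, an inner nuclear membrane protein with sterol reductase activity, measured 124, 122 and 129 CPM with si-NC and 99.4, 99.3 and 104 CPM with si-CNN3#1, with groups that did not overlap and a log2 fold change of -0.31 (SE 0.034, adjusted p = 1.80e-10, edgeR). POR, which passes electrons to CYP51A1 and SQLE, fell by 0.088 on the log2 scale (adjusted p = 0.0495, edgeR). The call of POR was lost without any one sample except si-CNN3#1 replicate 1 (adjusted p from 0.0619 to 0.277, edgeR). It was also lost with upper-quartile scaling or total counts (adjusted p = 0.0707 and 0.122, edgeR), DESeq2 (0.158) and limma (0.155), and POR was called in 6 of 18 alternatives. Of 10 genes that process or degrade the SREBP machinery 2 were called (20%), the proteases that cut SREBP in the Golgi, which moved in opposite directions. MBTPS2, the second of these proteases, measured 53.3, 53.5 and 54.6 CPM with si-NC and 63.1, 66.9 and 66.8 CPM with si-CNN3#1, a log2 fold change of 0.29 (SE 0.042, adjusted p = 5.75e-07, edgeR). MBTPS1, the first, measured 438, 444 and 439 CPM with si-NC and 413, 425 and 401 CPM with si-CNN3#1 and fell by 0.092 on the log2 scale (adjusted p = 0.0102, edgeR). Neither protease overlapped between groups, but MBTPS1 was not called without si-CNN3#1 replicate 3 (adjusted p = 0.0732, edgeR) or si-NC replicate 2 (adjusted p = 0.0501, edgeR), nor with limma (adjusted p = 0.0934).

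Genes of sterol transport and storage included 4 of 16 called (25%), all lower, with a list median of -0.064. ABCG1, a sterol exporter, measured 40.6, 39.4 and 38.7 CPM with si-NC and 29.1, 29.6 and 27.99 CPM with si-CNN3#1, a log2 fold change of -0.45 (SE 0.053, adjusted p = 1.80e-09, edgeR). NPC2, which carries cholesterol inside lysosomes, measured 158, 162 and 155 CPM with si-NC and 121, 129 and 121 CPM with si-CNN3#1, a log2 fold change of -0.36 (SE 0.032, adjusted p = 4.67e-13, edgeR). Both genes separated the groups fully, with every knockdown sample below every control. TMEM97, an endoplasmic reticulum protein that binds NPC1, and OSBP, which trades sterol for phosphoinositide at the Golgi, had log2 fold changes of -0.14 and -0.12 (adjusted p = 0.00342 and 0.0127, edgeR). OSBP was not called without si-CNN3#1 replicate 3 (adjusted p = 0.166, edgeR) or si-NC replicate 3 (adjusted p = 0.0515, edgeR), nor with DESeq2 (adjusted p = 0.0717) or limma (adjusted p = 0.13). The isoprenoid branches, which spend farnesyl diphosphate on prenylation, dolichol and ubiquinone, had 0 of 11 genes called in edgeR's test and 0 at an unadjusted p under 0.05.

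Other genes of fatty acid supply, activation and elongation had 6 of 17 called (35.3%), 4 higher and 2 lower. ME1, which makes cytosolic NADPH, measured 29.9, 32.6 and 31.3 CPM with si-NC and 35.4, 36.9 and 39.3 CPM with si-CNN3#1, a log2 fold change of 0.25 (SE 0.054, adjusted p = 7.06e-04, edgeR). SLC25A1, the mitochondrial citrate carrier that feeds ACLY, measured 136, 133 and 131 CPM with si-NC and 146, 145 and 149 CPM with si-CNN3#1, a log2 fold change of 0.14 (SE 0.031, adjusted p = 9.58e-04, edgeR). HSD17B12, the reductase that works with the elongases, had a log2 fold change of 0.13 (adjusted p = 0.00166, edgeR). Its groups, like those of ME1 and SLC25A1, did not overlap. The acyl-CoA synthetase ACSL5 fell by 0.13 on the log2 scale (adjusted p = 0.0306, edgeR) and was not called without si-CNN3#1 replicate 2, si-CNN3#1 replicate 3 or si-NC replicate 3 (adjusted p = 0.0842, 0.161 and 0.246, edgeR). Total counts (adjusted p = 0.0664, edgeR), thinned counts (adjusted p = 0.0746, edgeR), DESeq2 (0.162) and limma (0.158) did not call ACSL5 either.

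Of 15 genes for glycerolipids and lipid droplets 2 were called, which at 13.3% is the share among all genes. PLIN2, the coat protein of lipid droplets, measured 229, 225 and 218 CPM with si-NC and 203, 199 and 205 CPM with si-CNN3#1, a log2 fold change of -0.15 (SE 0.028, adjusted p = 1.21e-04, edgeR). PCYT1A, which controls phosphatidylcholine synthesis, had a log2 fold change of -0.14 with overlapping groups (adjusted p = 0.0469, edgeR), and it was not called without si-CNN3#1 replicate 1 or 2 or si-NC replicate 1 or 3 (adjusted p from 0.143 to 0.27, edgeR). PCYT1A was called in 6 of 18 alternatives, and its call was also lost with upper-quartile scaling, total counts or thinned counts (adjusted p = 0.061, 0.0906 and 0.0934, edgeR), DESeq2 (0.213) and limma (0.155). Fatty acid oxidation, the opposite route, had 4 of 15 genes called (26.7%), 1 higher and 3 lower. PPARA, a transcription factor of this route, measured 31.4, 33.3 and 33.6 CPM with si-NC and 26.4, 27.6 and 27.6 CPM with si-CNN3#1, a log2 fold change of -0.27 (SE 0.056, adjusted p = 2.63e-04, edgeR), with groups that did not overlap. The short-chain dehydrogenase ACADS had a log2 fold change of -0.31 (adjusted p = 0.00486, edgeR) and was not called without si-NC replicate 1 (adjusted p = 0.0504, edgeR), with DESeq2 (adjusted p = 0.0748) or with limma without a filter (adjusted p = 0.134). CPT1A and SLC25A20, which bring fatty acids into mitochondria, went opposite ways, with log2 fold changes of -0.13 and 0.20 (adjusted p = 0.011 and 0.0221, edgeR). CPT1A was not called without si-CNN3#1 replicate 1 or 3 or si-NC replicate 3 (adjusted p from 0.0744 to 0.111, edgeR), nor SLC25A20 without si-CNN3#1 replicate 1 or 3 or si-NC replicate 1 (adjusted p from 0.0532 to 0.125, edgeR). DESeq2 called neither (adjusted p = 0.0765 for CPT1A and 0.17 for SLC25A20), and limma did not call CPT1A (adjusted p = 0.141) or, without a filter, SLC25A20 (adjusted p = 0.07). The si-CNN3#1 seed site was present in 8 of the 90 tested genes of these lists (8.89%), beside the 9.98% of all tested genes with a 3′ UTR. These 8 were 4 of the 21 called genes, with TMEM97, PPARA and CPT1A lower and MBTPS2 higher, and 4 of the 69 that were not called.

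**Figure D4:**
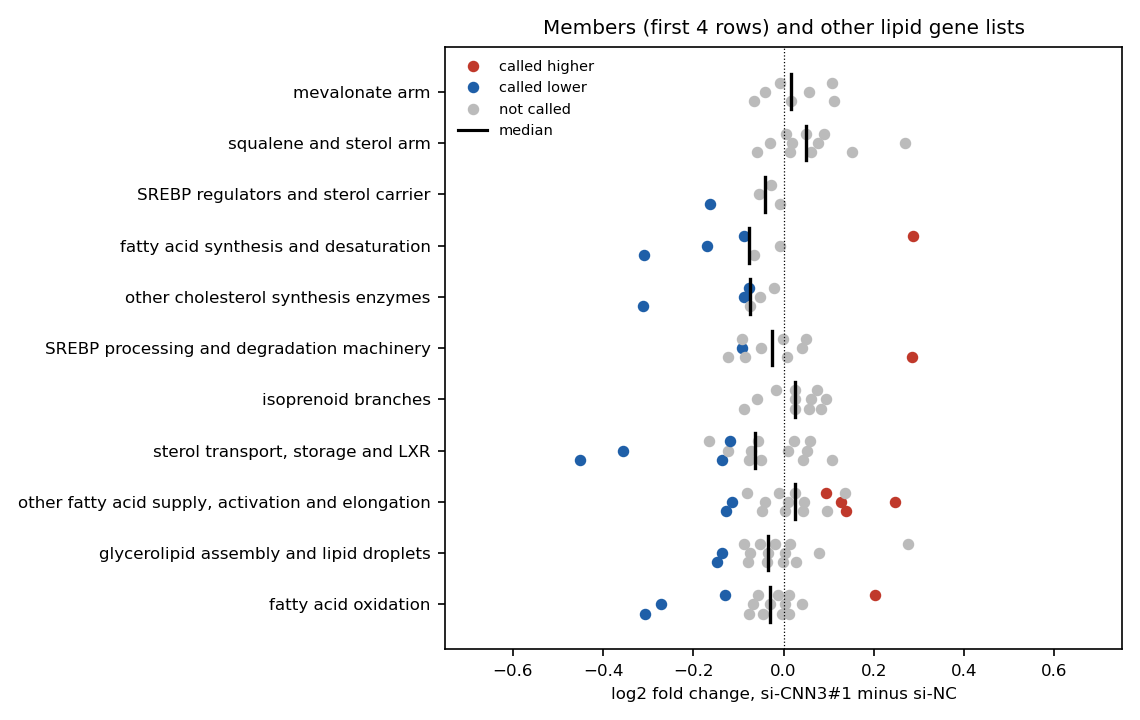
Log2 fold change of si-CNN3#1 over si-NC (horizontal axis) for each tested gene of the 4 member arms and 7 other lipid gene lists (vertical axis), with 1 point per gene, red or blue where called higher or lower, and a black bar at the list median. No point is coloured in the mevalonate arm, the squalene and sterol arm and the isoprenoid branches, and the lowest point is ABCG1 at -0.45.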

How the data were processed

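RNA sequencing of 3 si-CNN3#1 and 3 si-NC samples of SiHa cells was analysed. Per the labels, libraries came from total RNA with an Illumina TruSeq RNA kit. The authors screened the reads, aligned them, and deposited raw read counts per Ensembl gene. The authors also deposited FPKM values of the same genes. The submitters' processing notes name TopHat2 2.0.9, Bowtie2 2.0.6, HTSeq and DESeq 1.10.1. The genome build, the annotation and the strand setting of the counting are not given in the sources used here. Reads shared by overlapping genes or copies can therefore lower or raise a count.

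Genes were named from GENCODE release 29 (GRCh38), which holds 45342 of 48162 identifiers. Replicates of 1 group varied beyond counting noise (chi-square over its degrees of freedom, 1.57 to 2.00). Counts were tested with edgeR 4.0.16 in R 4.3.3 (TMM, filterByExpr defaults, glmQLFit and glmQLFTest, condition only), with Benjamini-Hochberg adjustment over 15860 genes. The SE is the absolute log2 fold change over the square root of F, and the common biological coefficient of variation was 0.0232. The p-values set each difference against the spread between samples of a group, and they cover only the variation among these cultures. Levels between genes were compared as FPKM, except that the ratios of genes within a sample and the sums over genes used CPM. Alternatives were other scalings and filters, DESeq2 1.42.0, limma 3.58.1 on log2 FPKM with a pseudocount of 1 or 0.1, which understates changes of low genes, glmTreat, a replicate block, thinned counts and each sample left out. The main fit, DESeq2, limma with a pseudocount of 1 and a filter, the replicate block and glmTreat were run on simulated data. The other alternatives were not.

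The members and lists were chosen with earlier results of these data known. All members were named, and up to 4 genes of each other list, those called with the largest absolute log2 fold change. 1 gene that this rule takes and 1 further immune marker are not reported here. Promoter windows are from RefSeq (GRCh38.p14).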

Additional observations from a re-analysis of the deposited data

How the results depend on the processing

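Of 18 alternatives, FADS2, SCD and ELOVL6 kept their direction and call in 17, INSIG1 in 16 and FASN in 12, and CNN3 in all 18. With glmTreat against a 1.2-fold change 126 genes, 0 members and 0 fatty acid members were called. limma without a filter called 585 genes and 3 members, losing INSIG1 (adjusted p = 0.103) and FASN (adjusted p = 0.318). limma on genes with a mean FPKM of at least 1 called 1363 genes with a pseudocount of 1 and 1353 with 0.1, without FASN. DESeq2 called 1073 genes, the same 5 members and 12 of the 21 called genes of the other lipid lists. The cause of these differences was not tested. With total counts alone 1 mevalonate or sterol enzyme was called (MSMO1, adjusted p = 0.0425), and all called genes numbered 1294 higher and 863 lower, against 978 and 1133.

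The replicate block called 2727 genes and 6 members, among them 1 sterol enzyme, MSMO1 (adjusted p = 0.0432). Same-numbered samples deviated together only weakly (correlations 0.0224 to 0.0572), although 6 of 6 samples correlated best with their own number, a hint from the data and not from the design, so no pairing was assumed.

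Values near 0 changed sign without being called. With total counts MVD, SREBF2 and ACLY stood at 0.0091, 0.0087 and 0.0089, with limma at 0.0089, 0.0083 and 0.0089 (pseudocount 1, with or without the filter) or 0.0090, 0.0083 and 0.0090 (pseudocount 0.1), and thinning gave SC5D -0.00024. Leaving out 1 sample called 1551 to 1747 genes, 4 or 5 members, 0 mevalonate or sterol enzymes and 3 or 4 fatty acid members. It moved the log2 fold change over -0.0031 to 0.036 in HMGCS1, -0.084 to 0.015 in MVK, -0.026 to 0.0088 in MVD, -0.023 to 0.072 in FDFT1, -0.012 to 0.025 in LSS, -0.0030 to 0.099 in NSDHL, -0.026 to 0.058 in SC5D, -0.029 to 0.015 in SREBF2 and -0.028 to 0.0041 in ACLY. Among the tested members CYP51A1 and TM7SF2 had the fewest counts, 87 to 163 per sample, and STARD4, with 0 to 2, could not be tested.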
